A study of Saccharomyces cerevisiae with 6 samples.

Results

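Gene expression was compared between 2 yeast strains that carry an extra NADH-oxidising enzyme, pooled, and the strain with the empty plasmid, and the genes described are those whose reading on all 4 oxidase arrays lay on the same side of both control arrays. Labelled RNA was hybridised to 6 Affymetrix Yeast Genome 2.0 arrays, 2 for each of 3 strains, from chemostats at the critical dilution rate on minimal medium with 10 g/L glucose. All strains derive from CEN.PK113-7D, a laboratory reference strain of Saccharomyces cerevisiae, and all carry the plasmid pYX212. The control has pYX212 without an insert, the NOX strain has pYX212-NOX and the AOX strain has pYX212-AOX. The transgenes themselves were not measured here. The critical dilution rate is not stated as a number, and if it differed from strain to strain, growth rate and transgene cannot be told apart. Since nothing in the labels ties the 2 arrays of a strain to independent cultures, the p-values measure only the spread between these arrays, which may be technical.

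Of 5498 S. cerevisiae probe sets, 1340 (24.4%) had all 4 oxidase arrays on one side of both control arrays, 680 above (12.4%) and 660 below (12%). In the limma fit of all 6 arrays, with a mean for each strain and the mean of NOX and AOX set against control, 156 probe sets (2.84%) passed a Benjamini-Hochberg adjusted p of 0.05, 128 higher (2.33%) and 28 lower (0.509%). Both conditions together were met by 120 probe sets of 120 genes (2.18%), 101 higher (1.84%) and 19 lower (0.346%) in the oxidase strains, and these are the genes described below. The side and the fit use the same readings, so the side adds no support to the call. The other 36 called probe sets had arrays on both sides or level with a control array.

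NADH forms when glucose is broken down and must be oxidised again for glycolysis to continue. In yeast this happens in the respiratory chain, in the formation of glycerol and in the formation of ethanol, and cells grown fast on glucose make ethanol although oxygen is present. NOX is a water-forming oxidase that oxidises NADH in the cytosol, while AOX, the alternative oxidase of mitochondria, passes electrons from ubiquinol to oxygen and so lets mitochondrial NADH be oxidised without proton pumping by the later complexes. The pooled comparison sets the mean of both oxidase strains against control. A gene that changed almost wholly in a single strain can therefore pass it, and the changes in each strain are given below where they differ.

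Over the S. cerevisiae probe sets the arrays had median intensities of 511 to 543 units, and 94.7% to 96.9% of these probe sets exceeded the background, defined as the 95th percentile of signals from probe sets of another organism on the same array. The 2 control arrays differed from each other by a median of 0.028 on the log2 scale, the AOX arrays by 0.068 and the NOX arrays by 0.124. NOX replicate 1 stood apart, with a mean log2 signal of 10.95 for the hybridisation controls, where the other arrays had 9.41 to 9.81. Without it the counts were 153 higher and 34 lower, and without NOX replicate 2 they were 334 and 242. The markers of MATa cells, the mating type of this strain, read 9.63 to 12.67, while those of MATalpha cells read 5.37 to 7.82, with MF(ALPHA)2 above background on 2 of 6 arrays. All further levels are log2 intensities after quantile normalization between arrays, and all changes are differences of them, oxidase strains minus control unless a strain is named.

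The calls rest on both control arrays. Without control replicate 1 the fit called 8 genes higher on one side and 0 lower (206 and 52 at an unadjusted p below 0.05). Without control replicate 2 it called 6 and 0 (179 and 45 unadjusted), and without AOX replicates 1 and 2 the counts were 58 and 10, and 37 and 6. The log2 change of none of the 120 genes moved by over 1.5 times in any of these fits. When NOX and AOX arrays were treated as a single group of 4, so that the difference between the strains counted as spread, 5 genes passed, all of them higher, and 0 lower (285 and 143 on one side at an unadjusted p below 0.05): DDR2, HSP42, TDH1, DCS2 and GPG1 (limma adjusted p of 0.024 for DDR2 and HSP42 and 0.041 for the others). The genes that kept their call whichever control array was left out were FIT2, TIS11, FRE5, SPG4, HSP26 and NCA3.

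The 5 genes that passed with NOX and AOX as a single group changed by nearly the same amount in both strains. That fit counts the difference between the strains as spread, so the choice itself favoured nearly equal change. DDR2, a small protein induced by many stresses, read 10.08 and 10.16 in control, 10.97 and 11.07 in NOX and 11.12 and 10.93 in AOX. Every oxidase array was above both control arrays, by at least 0.77, and NOX and AOX overlapped. The change was 0.90 (SE 0.07, 1.87-fold; adjusted p = 0.00413), and the difference AOX minus NOX was 0.01, with a 95% interval from -0.19 to 0.20. The small heat shock chaperone gene HSP42 read 9.61 and 9.62 in control and between 10.16 and 10.19 on all 4 oxidase arrays. It rose by 0.55 (SE 0.04; adjusted p = 0.00413), and the interval of AOX minus NOX ran from -0.10 to 0.12. TDH1, one of the genes for glyceraldehyde 3-phosphate dehydrogenase, read 11.11 and 11.15 in control, 11.62 and 11.67 in NOX and 11.67 and 11.62 in AOX. Its rise was 0.51 (SE 0.04; adjusted p = 0.00551), with an interval of AOX minus NOX from -0.13 to 0.12. DCS2, which regulates the handling of messenger RNA caps, rose by 0.70 (SE 0.06), with NOX at 0.65 and AOX at 0.76 above control. GPG1, a protein of the glucose-sensing G protein pathway, rose by 0.53 in both strains (SE 0.05 for the mean). SWC7 of the SWR1 chromatin complex read 4.90 to 4.96 in control and 5.28 to 5.44 in the oxidase strains, but none of its 6 readings was well above background.

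**Figure D1:**
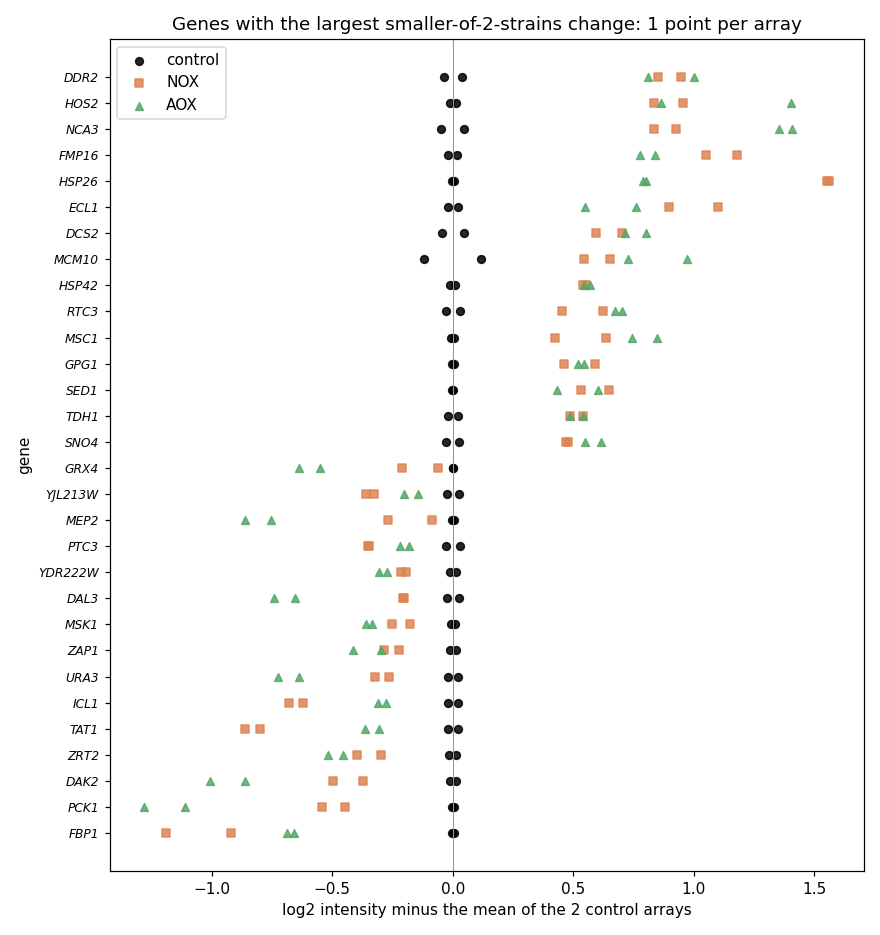
Each row is a gene, the 15 higher and the 15 lower with the largest change in the strain that changed less, and the x axis gives the log2 intensity of each array minus the mean of the 2 control arrays. Circles are control, squares NOX and triangles AOX arrays; the control points lie close together, with MCM10 the widest pair, and all oxidase points lie on one side of them, with HSP42, TDH1 and DDR2 showing NOX and AOX intermixed.

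A further set of genes rose in both strains but by unequal amounts or with more spread. For HOS2 and MCM10 NOX against control alone did not pass (limma adjusted p of 0.0517 and 0.054). HSP26, another small heat shock chaperone gene, read 10.52 and 10.51 in control, 12.07 and 12.08 in NOX and 11.32 and 11.31 in AOX. The mean rise was 1.18 (SE 0.04, 2.26-fold; adjusted p = 0.00026), and the rise in NOX exceeded that in AOX by 0.76 (adjusted p = 0.000454). FMP16, found in the mitochondrial proteome, read 8.28 and 8.24 in control, 9.44 and 9.31 in NOX and 9.04 and 9.10 in AOX, a rise of 0.96 (SE 0.05; adjusted p = 0.00182). NCA3, needed for expression of mitochondrial ATP synthase subunits, was not well above background on either control array (5.56 and 5.46) and read 6.44 and 6.34 in NOX and 6.92 and 6.86 in AOX. That made it at least 1.83-fold higher over both strains (adjusted p = 0.000993). The histone deacetylase gene HOS2, also not well above background in control, was at least 1.34-fold higher (adjusted p = 0.0266), and 1 AOX array at 6.59 stood above the other 3 oxidase arrays at 6.02 to 6.14. ECL1, known to extend chronological life span, rose by 0.83 (SE 0.09), and SED1, a structural protein of the cell wall, by 0.55 (SE 0.07) from 11.40 on both control arrays. MCM10, a DNA replication factor, rose by 0.72 (SE 0.10), though 1 of its 2 control readings was not above background. RTC3, MSC1 and SNO4 rose by 0.61, 0.66 and 0.53. SNO4, of the HSP31-type family, was measured by a probe set that may also bind its close relatives, so that its value is uncertain.

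The difference AOX minus NOX uses no control reading, although the spread it was tested against came from all 6 arrays. Of the 120 genes, 74 (61.7%) differed between AOX and NOX at a limma adjusted p below 0.05, against 461 of 5498 probe sets (8.38%; 220 or 4% higher and 241 or 4.38% lower in AOX). Each strain alone against control gave 204 calls for NOX (3.71%) and 197 for AOX (3.58%), which share the control arrays. Since the pooled comparison uses that same spread, a gene with close replicates passes both more easily. Among the 62 higher genes that differed, 36 lay farther from control in AOX and 26 in NOX. Of the 12 lower genes that differed, 9 lay farther from control in AOX and 3 in NOX. For 34 of the 39 higher and 6 of the 7 lower genes that did not pass, the 95% interval of the difference stayed within 0.5 log2 of 0. The smaller of the changes in NOX and AOX was 0.3 or more for 43 of the 101 higher genes and 5 of the 19 lower genes, and under 0.1 for 7 and 4.

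**Figure D2:**
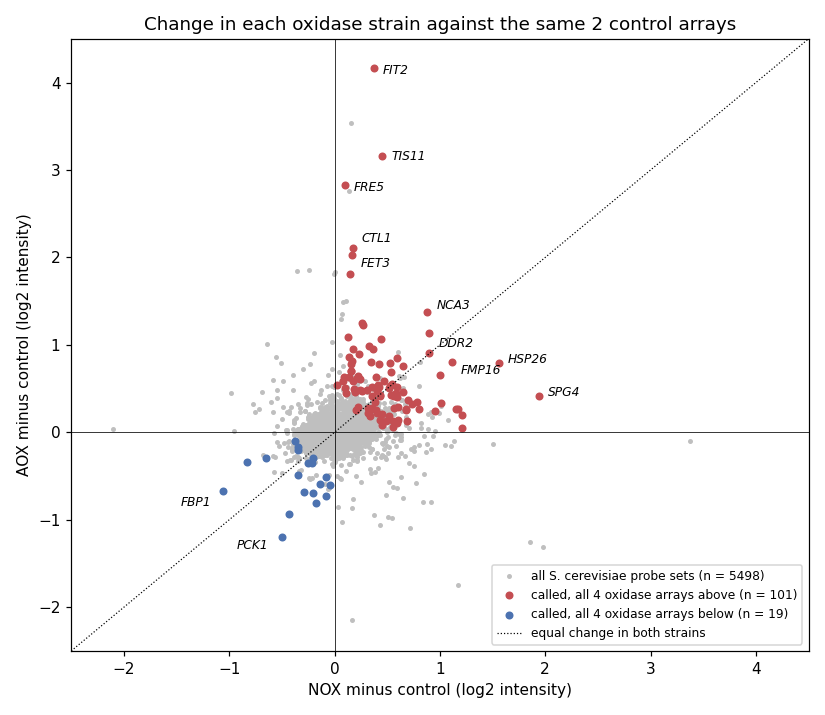
The x axis gives the log2 change of NOX and the y axis that of AOX, each against the same 2 control arrays, which makes the axes depend on each other. Grey points are all 5498 probe sets, red the 101 higher and blue the 19 lower genes, and the dotted line marks equal change; DDR2 lies on that line, FIT2, TIS11 and FRE5 lie near the AOX axis and SPG4 and HSP26 on the NOX side of it.

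**Figure D3:**
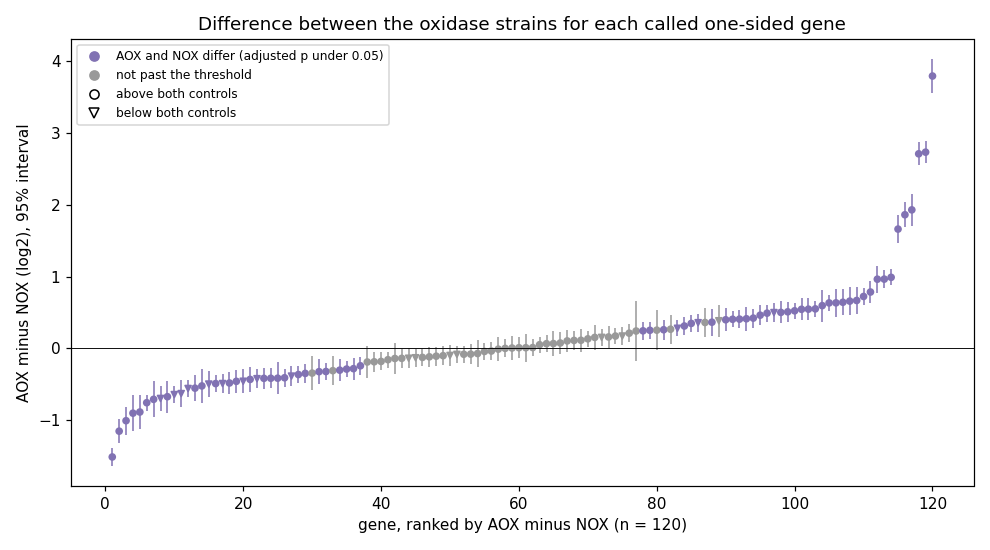
The 120 genes are ranked by AOX minus NOX (log2, y axis), with 95% intervals as vertical lines. Purple marks the 74 genes past the adjusted threshold and grey the others, circles are higher and triangles lower genes; the differences run from -1.52 (SPG4) to 3.80 (FIT2), and most of the 46 grey genes lie in the flat middle.

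Genes of the general stress response, which are induced by heat, oxidants and slow growth through Msn2 and Msn4, made up a large share. Of 40 measured genes of this list, 19 rose (47.5%, against 1.84% of all probe sets), none fell and 21 were not called on one side. This list and those below were drawn up with earlier results of these data known, so their shares are descriptions and no test of enrichment. The list had a median change of 0.36, against -0.003 over all probe sets, with 0.33 in NOX and 0.44 in AOX. Besides DDR2, HSP42, HSP26, MSC1 and RTC3, they included HSP12, a membrane-protecting hydrophilin, which read 10.99 and 11.00 in control, 11.34 and 11.53 in NOX and 12.13 and 12.01 in AOX. It rose by 0.75 (SE 0.07; adjusted p = 0.00627), by 0.63 more in AOX than in NOX (adjusted p = 0.0075). The disaggregase gene HSP104 rose by 0.33, SSE2, an exchange factor of Hsp70 chaperones, by 0.52 and TFS1, an inhibitor of a vacuolar protease, by 0.49. NQM1, a transaldolase paralog, rose by 0.54, with NOX at 0.74 and AOX at 0.33. YRO2 (0.66), MOH1 (0.67), SPI1 (0.57), GRE1 (0.49), ALD3, an aldehyde dehydrogenase (0.44), CYC7, the second isoform of cytochrome c (0.43), RTN2 (0.40), DDR48 (0.36) and TMA10 (0.31) completed the 19. Some of these rose mainly in a single strain: CYC7 (NOX 0.15, AOX 0.70) and DDR48 (0.09 and 0.63) in AOX, MOH1 (1.01 and 0.335) and TMA10 (0.56 and 0.06) in NOX. PHM7 (NOX -0.195, AOX 0.91) and YGP1 (0.06 and 1.30), also of this list, were called in the pooled fit without lying on one side. The cytosolic catalase gene CTT1 did not pass (0.40; adjusted p = 0.0649). In the list of hydrophilins and stationary phase genes, 7 of 16 rose on one side of both controls (43.8%, against 1.84%). The list also held genes that went apart in the strains. RGI2, a respiratory growth gene, stood at 1.85 in NOX and -1.26 in AOX (adjusted p = 0.000114 and 0.000296 against control), and SIP18, a hydrophilin, read 8.18 and 8.16 in control, 9.61 and 9.74 in NOX and between 8.02 and 8.06 in AOX. Both were called in the pooled fit without lying on one side. Of the 7, SPG4 read 7.47 and 7.43 in control, 9.38 on both NOX arrays and 7.89 and 7.84 in AOX, a rise of 1.18 (SE 0.04; adjusted p = 0.00026). SNO1, a vitamin B6 gene, was not well above background in control and was at least 1.56-fold higher, and FMP45 rose by 0.60.

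Of the 30 heat shock and chaperone genes, 4 rose (13.3%, against 1.84%), HSP26, HSP42, HSP104 and SSE2, and none was called lower, while the list's median change was 0.00. All 4 also belong to the stress response list. Called or not, 6 of the 30 lay above both control arrays on every oxidase array and 6 below, against 12.4% and 12% of all probe sets. In the oxidative stress list 1 of 32 genes rose, a share of 3.12% near the 1.84% of all probe sets. It was the peroxiredoxin gene AHP1, from 12.20 and 12.15 in control to between 12.52 and 12.69 in the oxidase strains, by 0.44 (SE 0.05; adjusted p = 0.0137).

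**Figure D4:**
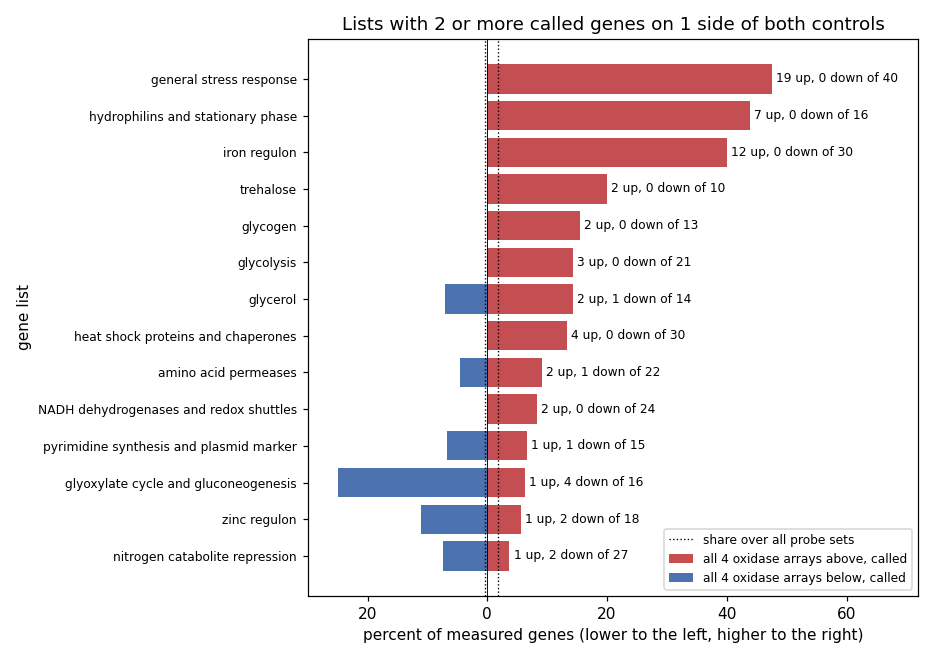
Bars give the percent of the measured genes of each list that were called with all 4 oxidase arrays above (red, to the right) or below (blue, to the left) both control arrays, for the 14 lists with 2 or more such genes. Dotted lines mark the shares over all probe sets, 1.84% and 0.346%; the stress response, stationary phase and iron lists have the longest red bars and the glyoxylate and gluconeogenesis list the longest blue one.

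Genes for reserve carbohydrates and glycolysis rose in part. In glycolysis 3 of 21 genes rose (14.3%, against 1.84% of all probe sets) and none fell, and the median change was 0.10. ENO1, a glucose-repressed enolase, read 11.65 on both control arrays, 12.05 and 12.07 in NOX and 12.18 and 12.21 in AOX, a rise of 0.48 (SE 0.04; adjusted p = 0.00478). Its partner ENO2 read 13.10 on both control arrays and 13.14 to 13.22 in the oxidase strains, a difference of 0.10 that did not pass (adjusted p = 0.328). GPM2, a paralog of phosphoglycerate mutase, rose by 0.53, and TDH1 was the third. TDH3 was the brightest probe set on all 6 arrays, so quantile normalization set it to the same value throughout. Among 10 trehalose genes 2 rose (20%), PGM2, phosphoglucomutase (0.49), and TSL1, a subunit of the trehalose synthase complex (0.42). PGM2 was 0.72 higher in AOX than in NOX (adjusted p = 0.00084). Among 13 glycogen genes 2 rose (15.4%), GDB1, the debranching enzyme (0.25), and GIP2, which targets a phosphatase (0.45). IGD1, an inhibitor of the debranching enzyme, was outside the list and rose by 0.29.

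The lower genes included enzymes of gluconeogenesis and the glyoxylate cycle, which yeast uses to grow on ethanol and acetate and which glucose represses. In this list of 16 genes 4 fell (25%, against 0.346% of all probe sets), 1 rose and 11 were not called on one side. FBP1, fructose bisphosphatase, read 9.17 and 9.18 in control, 7.99 and 8.26 in NOX and 8.52 and 8.49 in AOX. It fell by 0.86 (SE 0.08; adjusted p = 0.00627), and AOX minus NOX was 0.38 (adjusted p = 0.0638). PCK1, phosphoenolpyruvate carboxykinase, read 10.51 and 10.50 in control, 10.06 and 9.96 in NOX and 9.22 and 9.39 in AOX, and it fell by 0.85 (SE 0.06; adjusted p = 0.00413). The fall of PCK1 was the greater in AOX, by 0.70 (adjusted p = 0.00398). ICL1, isocitrate lyase, fell by 0.47, with NOX at -0.65 and AOX at -0.29. MLS1, malate synthase, fell by 0.40, almost wholly through AOX (-0.73, against -0.08 in NOX). The cytosolic malate dehydrogenase gene MDH2 went the other way, with a rise of 0.41 (NOX 0.69, AOX 0.13). The list's median change was 0.19 in NOX and -0.43 in AOX.

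Among the 14 genes of glycerol metabolism, GPD1 and GCY1 rose (14.3%, against 1.84% of all probe sets) and DAK2 fell (7.14%, against 0.346%). GPD1, which forms glycerol 3-phosphate and oxidises cytosolic NADH, read 10.32 and 10.33 in control, 10.56 and 10.53 in NOX and 10.92 and 10.98 in AOX. It rose by 0.42 (SE 0.04; adjusted p = 0.00814), and AOX exceeded NOX by 0.41 (adjusted p = 0.00671). GCY1, a glycerol dehydrogenase, rose by 0.72, with NOX at 1.18 and AOX at 0.27. DAK2, a dihydroxyacetone kinase, read 6.42 and 6.40 in control, 5.91 and 6.04 in NOX and 5.40 and 5.55 in AOX, where neither reading was above background. The change in NOX was -0.44 (adjusted p = 0.0351), and DAK2 was at least 1.61-fold lower in AOX than in control (adjusted p = 0.00204). GPD2, the paralog of GPD1, had arrays on both sides of control and a difference of 0.49 with an SE of 0.34 (adjusted p = 0.537). In the list of NADH dehydrogenases and redox shuttles, 2 of 24 genes rose (8.33%, against 1.84% of all probe sets), GPD1 and MDH2, and none was called lower. Called or not, 6 of the 24 lay below both control arrays on all 4 oxidase arrays and 3 above, against 12% and 12.4% of all probe sets. The external NADH dehydrogenase NDE2 had all 4 oxidase arrays above control (7.71 to 8.19, against 7.38 and 7.39) but did not pass (0.50; adjusted p = 0.0826). NDE1 differed by -0.06, NDI1 by -0.14, the fermentation genes PDC1 and ADH1 by 0.04 and 0.00, GUT2 by 0.10, CIT1 by -0.01, HAP4 by -0.06 and TPI1 by 0.04. These 8 genes were not called.

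The iron regulon, the set of uptake and sparing genes that Aft1 turns on when iron is short, met the rule mainly through AOX. Of 30 measured genes 12 were called higher on one side (40%, against 1.84%), none lower and 18 were not, with a median change of 0.70 in AOX and 0.10 in NOX. FIT2, a cell wall protein of siderophore iron uptake, read 8.33 and 8.40 in control, 8.61 and 8.88 in NOX and 12.57 and 12.51 in AOX. AOX exceeded NOX by 3.80 (adjusted p = 3.68e-05), and NOX against control alone was 0.37 (adjusted p = 0.101). TIS11, which degrades messenger RNA of iron proteins, was dim in control (5.27 and 5.26) and on 1 NOX array (5.80 and 5.64), and read 8.42 and 8.44 in AOX. It was at least 2.47-fold higher over both strains (adjusted p = 0.00026). FRE5, a ferric reductase, was not well above background in control (4.94 and 4.80) or NOX (4.96 and 4.97), and read 7.70 on both AOX arrays. It was at least 1.48-fold higher over both strains (adjusted p = 0.00026), through AOX alone. FTR1, the iron permease, read 10.57 and 10.56 in control, 10.82 and 10.84 in NOX and 11.80 and 11.84 in AOX. For FTR1 NOX against control alone passed as well (0.26; adjusted p = 0.0411), and AOX exceeded NOX by 0.99 (adjusted p = 0.000191). The oxidase gene FET3, its partner in uptake, stood at 0.16 in NOX and 2.03 in AOX, and ARN1, a siderophore transporter, at 0.15 and 1.81. The regulator gene AFT1 itself rose by 0.47 over both strains (0.15 in NOX, 0.79 in AOX), and FRE3 by 0.75, FIT1 by 0.43, ISU2, an iron-sulfur scaffold, by 0.43, MRS4, a mitochondrial iron carrier, by 0.33 and FRE2 by 0.28. All 12 differed between AOX and NOX. Other iron uptake genes were called higher in the pooled fit without lying on one side. They were the siderophore uptake genes FIT3 (NOX 0.16, AOX 3.54), SIT1 (0.135 and 2.76) and ENB1 (-0.003 and 1.81). The reductase genes FRE1 (-0.025 and 0.72) and FRE6 (0.08 and 0.75) did the same, while FRE7 was called lower (0.07 and -1.02). GRX4, a glutaredoxin that restrains Aft1, fell by 0.36 (NOX -0.14, AOX -0.59; adjusted p = 0.0356 for the mean).

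Other transport genes moved in both directions. In the zinc list of 18 genes 2 fell (11.1%, against 0.346% of all probe sets), the low-affinity transporter gene ZRT2 and the regulator gene ZAP1, and COT1, a vacuolar metal transporter, rose (5.56%, against 1.84%). ZRT2 read 9.23 and 9.21 in control, 8.82 and 8.92 in NOX and 8.70 and 8.76 in AOX, a change of -0.42 (SE 0.05; adjusted p = 0.0132), and AOX minus NOX had an interval from -0.28 to 0.00. ZAP1 changed by -0.30 (adjusted p = 0.0443). COT1 rose by 0.28, almost wholly through AOX (0.54, against 0.02 in NOX). ZRT1, another zinc transporter gene, was called lower in the pooled fit (-0.99) but went apart in the strains (NOX 0.17, AOX -2.145). Under nitrogen catabolite repression 2 of 27 genes fell (7.41%, against 0.346%), the ammonium permease gene MEP2 and DAL3 of allantoin use. MEP2 changed by -0.49 (NOX -0.18, AOX -0.81) and DAL3 by -0.45 (NOX -0.21, AOX -0.70). The repressor gene DAL80 rose by 0.35 (1 of 27, 3.7%, against 1.84%). Of 22 amino acid permease genes TAT1 fell (4.55%, against 0.346%) and GNP1, by 0.26, and BAP3 rose (9.09%, against 1.84%). TAT1 read 7.14 and 7.18 in control, 6.35 and 6.29 in NOX and 6.85 and 6.79 in AOX, a change of -0.58 (SE 0.04; adjusted p = 0.00419). BAP3 was not well above background in control or NOX and was at least 1.34-fold higher in AOX than in control. The copper transporter gene CTR3 changed by -0.29 (NOX -0.08, AOX -0.51).

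URA3, the marker gene of the plasmid and also a chromosomal gene of yeast, was lower in both oxidase strains. It read 13.32 and 13.36 in control, 13.02 and 13.08 in NOX and 12.71 and 12.62 in AOX, and it fell by 0.49 (SE 0.05; adjusted p = 0.00729). NOX against control alone did not pass (-0.29; limma adjusted p = 0.0517), while AOX did (-0.68; limma adjusted p = 0.00246). AOX was below NOX by 0.39 (adjusted p = 0.0122). URA1, the dihydroorotate dehydrogenase of the same pathway, rose by 0.38 (NOX 0.18, AOX 0.59), each 6.67% of the pyrimidine list, and the other 13 of 15 genes of that list were not called on one side. The labels do not give plasmid copy number, and its part in these results was not tested.

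A single gene was called on one side in each of several further lists, where 1 gene makes 2.86% to 8.33% of the list, against 1.84% higher and 0.346% lower over all probe sets. These were MIG2, a glucose repressor (0.34), SHH3, a paralog of a succinate dehydrogenase subunit (at least 1.08-fold higher over both strains, but not above background in AOX), MET13 of methionine synthesis (0.27), PAI3, an inhibitor of vacuolar proteinase A (0.35), GAS4, a spore wall enzyme (0.48), FAA2, a fatty acid activating enzyme (-0.32), and PHM6, a phosphate-regulated gene (-0.23). No gene was called on one side in 14 lists. They were the 63 ribosome biogenesis genes (median change -0.05), the 63 mitochondrial ribosomal protein genes (-0.04), the 58 amino acid biosynthesis genes (-0.04), the 36 proteasome, 33 cell cycle and histone, 31 mitochondrial import, 30 cytosolic ribosomal protein, 28 ergosterol, 24 NAD synthesis, 23 polyamine and drug transport, 22 fatty acid and phospholipid synthesis, 21 heme and ubiquinone, 17 ATP synthase and 17 aromatic and branched-chain catabolism genes. Without passing the fit, 13 of the 63 ribosome biogenesis genes lay below both control arrays on all 4 oxidase arrays and 0 above, and 15 of the 63 mitochondrial ribosomal protein genes lay below and 3 above, against 12% and 12.4% of all probe sets. In the nitrogen catabolite repression list 11 of 27 lay below and 4 above, the called ones included.

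The higher genes were dimmer than average in control, with a median level of 8.17 against 9.09 over all probe sets, and the lower genes were brighter, at 9.60. Not well above background on both control arrays were 14 of the 101 higher genes and none of the 19 lower ones. Over all S. cerevisiae probe sets, 95.1% and 94.7% exceeded background on control replicates 1 and 2. The rule uses the control readings, and a gene at background in control can hardly be called lower. These levels and counts thus follow in part from the choice of genes. The median rise was 0.48, with a range from 0.23 (HRT1) to 2.27 (FIT2), and the lower genes ranged from -0.86 (FBP1) to -0.23 (PHM6). In all, 9 genes reached a 2-fold rise on this scale, FIT2, TIS11, FRE5, HSP26, SPG4, CTL1, NCA3, FET3 and HOS2, and 0 a 2-fold fall. For HOS2, NCA3 and FRE5 the bound given above is under 2-fold. CTL1, an RNA triphosphatase gene, did so through AOX (2.10, against 0.17 in NOX). The genes had 6 neighbouring pairs in chromosomal order, of which 4 moved the same way: GPD1 with GPM2, HBT1 with FMP45, DDR48 with PAI3 and HRT1 with GAS4. YDR222W with CRF1 and GRX4 with TMT1 moved in opposite directions. With 101 higher and 19 lower genes, most pairs would move the same way in any case. Of the higher genes 44 and of the lower genes 5 were in none of the 45 lists. Of the 101 higher genes 11 (10.9%) had no name beyond a locus tag, against 9.24% of all probe sets. YAR010C, read at 11.64 and 11.63 in control and 11.92 to 12.49 in the oxidase strains, belongs to a repeated Ty element, and its value cannot be assigned to one copy.

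Among the higher genes outside the lists, several had similar changes in both strains. BDH2, a paralog of butanediol dehydrogenase, read 8.43 and 8.48 in control, 8.81 and 8.93 in NOX and 8.99 and 8.96 in AOX, a rise of 0.47 (SE 0.05; adjusted p = 0.00978). EGO4 rose by 0.50, FMP33 by 0.43, YER079W by 0.36, SDS24 by 0.33 and YDL124W, an aldo-keto reductase, by 0.30, and for these 6 genes AOX minus NOX was not called. Before adjustment the 95% interval of that difference lay below 0 for EGO4 (-0.33 to -0.05) and SDS24 (-0.28 to -0.01). MPT5, an RNA-binding protein of the Puf family, rose by 0.39. Against control alone, AOX did not pass for SDS24 (0.26; limma adjusted p = 0.0835). Nor did NOX for MPT5 (0.35; limma adjusted p = 0.0605). In others AOX minus NOX was called. TMT1, a methyltransferase, stood at 0.17 in NOX and 0.95 in AOX, PCL5, a cyclin, at 0.17 and 0.81, and AKR1, a palmitoyl transferase, at 0.14 and 0.63. YAP5, a regulator that responds to high iron, stood at 0.18 and 0.49. HSP30, a membrane heat shock protein, stood at 0.22 and 0.64. PRR2, a protein kinase, read 6.78 and 6.77 in control, 7.89 and 8.07 in NOX and 6.82 and 6.83 in AOX, so that its call came almost wholly from NOX (1.21, against 0.05 in AOX). The 5 lower genes outside the lists were GRX4, described with iron, MSK1, the mitochondrial lysyl-tRNA synthetase (-0.28), PTC3, a protein phosphatase (-0.27), YJL213W (-0.26) and YDR222W (-0.25). For the last 4 AOX minus NOX was not called.

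At the edges of the rule, HRT1 and YJL213W had an adjusted p of 0.045 and were just inside, while OSW1 (0.0519) and CMC4 (0.0525) were one-sided and just outside. COT1 was kept with its nearest NOX array 0.005 above the nearest control array, and IZH4 was left out with an AOX array 0.006 below the higher control array.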

How the data were processed

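The deposited table gives each of the 6 arrays' signal per probe set as a linear intensity, judged from its values; for the summarising and scaling of probes by the authors, a program is not given in the labels used here. The table held 10928 probe sets. GEO's platform annotation, updated through Entrez identifiers to the R64 RefSeq gene table, assigned 5498 to 5449 S. cerevisiae genes; 1747 named for another organism gave the background, and 3470 unnamed and 213 control probe sets were not tested in the main fit. Arrays were grouped by title. Values were taken as log2(intensity + 16), so that changes of dim genes are understated, and quantile normalized, since array medians over all 10928 probe sets differed by up to 0.204 log2, past the limit of 0.1; over the S. cerevisiae probe sets alone they differed by up to 0.085, and the unnormalized values are an alternative. limma 3.58.1 (R 4.3.3; lmFit and eBayes, 3 residual and 2.77 prior degrees of freedom) fitted a mean per strain, with Benjamini-Hochberg adjustment over 5498 probe sets; every adjusted p in the text comes from limma. SE is limma's, and n is 2 arrays per strain. "At least" folds raise the dim side's readings to the 95th percentile of the background.

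The members and the 45 lists were chosen with earlier results of these data known, from general knowledge of yeast, and lists are described by counts and medians. Genes named by rule were the 15 higher and 15 lower with the largest change in the strain that changed less, the 5 each with the largest mean change, up to 4 per list with the lowest adjusted p, and 17 genes of redox and central carbon metabolism with URA3 among them; others were named after their values were seen. Promoter motifs were not analysed here. The fit was tested on simulated data. The alternatives are other scalings, pseudocounts of 1 and 64, a dim filter, another variance prior, a 2-group fit, a threshold of 0.01, a margin of 0.1, a replicate block and leaving out each array.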

Additional observations from a re-analysis of the deposited data

Results flagged for a closer look

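Among the 80 genes named by rule, 41 differed between AOX and NOX at a limma adjusted p below 0.05, against 8.38% of all probe sets. The 80 were partly chosen for a low adjusted p, which rests on the same spread, so the count is a description. All values here are measured log2 AOX minus NOX. Of the genes higher in the oxidase strains, 16 were higher in AOX than in NOX. The iron genes FIT2 (3.80), FRE5 (2.73), TIS11 (2.71), FTR1 (0.99) and MRS4 (0.51) were among them, as were PGM2 (0.72), BAP3 (0.67), HSP12 (0.63), CYC7 (0.55), COT1 (0.52), NCA3 (0.50), SPI1 (0.46), GPD1 (0.41), URA1 (0.41), TSL1 (0.40) and HSP104 (0.26). In 13 the rise was greater in NOX. They were SPG4 (-1.52), GCY1 (-0.91), SNO1 (-0.89), HSP26 (-0.76), SHH3 (-0.71), MDH2 (-0.56), PAI3 (-0.48), MIG2 (-0.42), NQM1 (-0.41), MET13 (-0.37), GPM2 (-0.33), DAL80 (-0.33) and FMP16 (-0.31). Of the lower genes, 9 lay lower in AOX: PCK1 (-0.70), MLS1 (-0.65), MEP2 (-0.63), FAA2 (-0.56), DAK2 (-0.50), DAL3 (-0.49), GRX4 (-0.46), CTR3 (-0.42) and URA3 (-0.39). In 3 the level was lower in NOX: TAT1 (0.50), ICL1 (0.36) and PHM6 (0.28). For genes not above background in a strain the values stand for bounds: in AOX against NOX, FRE5 was at least 4.07-fold and BAP3 at least 1.44-fold higher, and in NOX against AOX, SHH3 was at least 1.43-fold and DAK2 at least 1.19-fold higher. TIS11 was above background on 1 of 2 NOX arrays.

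For 1 of the 80 genes a single oxidase array stood far from the other 3. NDE1 read 12.52 on NOX replicate 2 and 12.41 to 12.42 on the others. Chance alone sets about 1 in 20 such groups apart.

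Outside the named probe sets, 6 of 3470 unnamed ones were called on one side of both control arrays when tested with the named, 3 above and 3 below. That is a smaller share than the 120 of 5498 S. cerevisiae probe sets (2.18%) in the main fit.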

How the results depend on the processing

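The number of arrays limits every value. No gene of the 120 changed direction under any alternative. The counts called, called higher on one side, called lower on one side and, among these, differing between AOX and NOX were 156, 101, 19 and 74. They stayed within 1.5 times of these under both median scalings, without dim probe sets, with pseudocounts of 1 or 64, with a variance trend, and with quantile normalization on S. cerevisiae probe sets alone, an alternative chosen after seeing the data. A margin of 0.1 left 76 higher and 13 lower, of which 43 differed between the strains (this last count was added after seeing the data); fewer genes enter by construction. On the deposited values without normalization, 12 genes were lower, and 92 of the 120 genes kept their call. With quantile normalization on S. cerevisiae probe sets alone, 105 kept it. At an adjusted p below 0.01 the counts were 67, 45, 8 and 29. The fit with 2 groups called 5, 5 and 0. That fit counts the difference between NOX and AOX as spread. For the other moved counts the cause was not tested. Leaving out 1 array at a time gave 6 to 739 calls, 6 to 334 higher, 0 to 242 lower and 6 to 302 differing between the strains, the lowest without a control array and the highest without NOX replicate 2, where the 1 array left for a strain is taken to vary as the rest do. Without control replicates 1 and 2, 8 and 6 of the 120 genes kept their call; without AOX replicates 1 and 2, 62 and 43 did, and without NOX replicates 1 and 2, 114 and 120 did. With the replicate block the counts were 74, 49, 8 and 34, and 57 of the 120 genes kept their call. The differences between replicates correlated at 0.116 (control and NOX), -0.207 (control and AOX) and -0.60 (NOX and AOX). Equal replicate numbers thus did not pair the arrays. The NOX and AOX differences tended to run in opposite directions, which a block by replicate number does not remove. The cause was not tested. With a pseudocount of 64 the change of 26 genes moved by over 1.5 times, and with quantile normalization on S. cerevisiae probe sets alone that of 17. NDE2 passed with other-organism scaling (0.54) and without NOX replicate 1 (0.59) or 2 (0.41).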
